A study of Mus musculus with 24 samples.

Results

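The neural crest and arch mesenchyme genes described here are *Sox10*, *Foxd3*, *Tfap2a*, *Tfap2b*, *Dlx1*, *Dlx2*, *Dlx5*, *Dlx6*, *Twist1* and *Prrx1*. They were chosen by name, and all 10 were found among the 19938 genes measured, each by 1 probe set. The data are 24 Affymetrix mouse Gene ST arrays of RNA from microdissected anterior heart field (AHF) tissue at E9.5, from embryos of 19 to 21 somite pairs. There were 6 groups of 4 arrays, which formed 3 experiments, each with a mutant and its own control. Values are on the log2 scale, so that a difference of 1 is a doubling. Embryos were pooled by genotype before RNA isolation, so an array is a pool and not an embryo. The paper gives the mouse line with floxed *Tbx1* alone as congenic in Swiss Webster. It gives the lines with floxed β-catenin as mixed C57Bl/6 and Swiss Webster.

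All mutants carried the *Mef2c-AHF-Cre* transgene, in which an AHF enhancer of *Mef2c* drives the recombinase. In *Tbx1 LOF* embryos it inactivated *Tbx1* (Tbx1 f/- or Tbx1 f/f, with the genotype of each array not given in the sources used here). In *β-cat LOF* embryos it inactivated floxed β-catenin (gene *Ctnnb1*). In rescue embryos it inactivated *Tbx1* together with 1 β-catenin allele. The methods name the controls as Cre-negative embryos carrying 1 floxed allele of the gene or genes concerned, whereas the sample records name wild type and Cre-carrying heterozygous littermates. The control genotype is therefore not settled. A Cre effect cannot be told apart from the deletion if the controls lacked Cre.

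Neural crest cells leave the dorsal neural tube and stream into the pharyngeal arches, where they form most of the skeletal and connective tissue and later populate the cardiac outflow tract. AHF mesoderm, in which *Mef2c-AHF-Cre* is active, lies in the core of the same arches, and the *Cre* is not designed to delete in crest. *Sox10* and *Foxd3* mark early and migrating crest, the AP-2 genes *Tfap2a* and *Tfap2b* are expressed in crest and in surface ectoderm, the *Dlx* homeobox genes pattern the arch mesenchyme from proximal to distal, and *Twist1* and *Prrx1* are mesenchymal regulators shared by crest and mesoderm. In bulk tissue such as this, fewer cells of a type and less RNA per cell cannot be told apart.

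Promoter sequences are shown for 4 of the genes, the AP-2 pair and the neighbours *Dlx1* and *Dlx2*. Of the AP-2 pair, *Tfap2b* was lower in *Tbx1 LOF* only at an unadjusted p under 0.05, and *Dlx1* and *Dlx2* varied together. Each stretch holds 250 bases before and 50 after a transcription start (RefSeq, GRCm38.p6), and capitals mark matches to the motifs named after them. *Tfap2a* has a further start in the table, which is not shown.
Tfap2a (chr13:40734871-40735170, minus strand): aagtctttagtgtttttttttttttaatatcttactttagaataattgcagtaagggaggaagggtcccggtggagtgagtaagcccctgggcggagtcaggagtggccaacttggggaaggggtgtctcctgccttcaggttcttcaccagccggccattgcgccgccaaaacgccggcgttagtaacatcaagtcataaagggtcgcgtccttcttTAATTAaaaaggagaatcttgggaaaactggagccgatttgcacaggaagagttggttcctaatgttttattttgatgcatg
Tfap2b (chr1:19211804-19212103, plus strand): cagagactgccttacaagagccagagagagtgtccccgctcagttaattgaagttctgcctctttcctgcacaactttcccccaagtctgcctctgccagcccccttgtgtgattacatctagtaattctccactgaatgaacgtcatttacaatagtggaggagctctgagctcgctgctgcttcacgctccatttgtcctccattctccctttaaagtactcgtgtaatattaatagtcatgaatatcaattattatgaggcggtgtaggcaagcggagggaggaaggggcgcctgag
Dlx1 (chr2:71529195-71529494, plus strand): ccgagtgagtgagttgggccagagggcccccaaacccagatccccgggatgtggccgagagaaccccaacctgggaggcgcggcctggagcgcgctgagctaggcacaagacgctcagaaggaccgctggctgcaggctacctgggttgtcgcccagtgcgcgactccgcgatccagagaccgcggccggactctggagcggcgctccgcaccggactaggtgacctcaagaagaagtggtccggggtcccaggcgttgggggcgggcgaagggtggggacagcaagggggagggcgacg
Dlx2 (chr2:71546705-71547004, minus strand): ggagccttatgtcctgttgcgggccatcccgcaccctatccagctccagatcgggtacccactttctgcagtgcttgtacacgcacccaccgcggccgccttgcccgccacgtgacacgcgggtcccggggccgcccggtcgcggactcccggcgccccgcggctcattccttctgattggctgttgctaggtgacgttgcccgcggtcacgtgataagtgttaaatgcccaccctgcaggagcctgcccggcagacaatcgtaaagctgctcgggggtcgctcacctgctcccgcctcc

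The table held 8 such stretches for 7 of the 10 genes, all but *Sox10*, *Dlx5* and *Dlx6*. Short motifs of 4 kinds were searched on both strands. The homeodomain motif TAATTA lay once in *Tfap2a*, with its first base at position -32 from the start, and once in *Prrx1*, in 2 of the 8 stretches against 5.29% of the 32851 promoters of the table. The T-box motif AGGTGT was found once, in *Twist1*, on the opposite strand, against 13.7% of all promoters. The AP-2 motif GCCNNNGGC, present in 16.6% of all promoters, and the TCF and LEF motif TCAAAG, present in 16%, were in none of the 8. No 2 matches overlapped. The promoters of *Dlx1* and *Dlx2* were GC-rich (69.3% and 66.3%), whereas those shown for *Tfap2b* and *Tfap2a* held 48.3% and 46.3%. The further *Tfap2a* start, not shown, held 61% and no match to any of the motifs, so for this gene both depend on the start chosen.

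The labels were first checked on the deleted genes. *Tbx1* was lower in *Tbx1 LOF* by a log2 difference of -0.64 (SE 0.094; adjusted p = 0.00626 from limma), with no overlap between mutant and control arrays. It differed by -0.31 (SE 0.094; adjusted p = 1 from limma) in rescue, again without overlap. *Ctnnb1* differed by -0.03 (SE 0.059) in *β-cat LOF*, where the arrays overlapped, so its array level does not check that label. In rescue it differed by -0.05 (SE 0.059; limma, adjusted p = 1), with every mutant array (13.11 to 13.14) below every control (13.16 to 13.20). *Isl1*, which marks the heart field progenitors, was at 10.47 to 10.92 on every *β-cat LOF* and *β-cat* control array and at 10.50 to 10.93 on the other arrays. Heart tube genes varied between groups, and 1 *β-cat* control array (replicate 2) stood apart from its group in them. The mean level of 9 heart tube genes there, relative to the average of all 24 arrays, was 2.06, against at most 0.732 in the other 3.

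None of the 10 genes passed an adjusted p of 0.05 in any comparison. The largest difference was -0.34 (*Tfap2b* in *Tbx1 LOF*) within the 3 mutant against control comparisons. The median residual SD of the 10 genes was 0.151, against 0.112 over all genes. It ran from 0.083 for *Prrx1*, above 21.7% of all genes, to 0.274 for *Dlx5*, above 98.1%. *Dlx2* (0.216) and *Dlx6* (0.219) also lay among the more variable genes, so the 3 were measured least precisely.

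**Figure D1:**
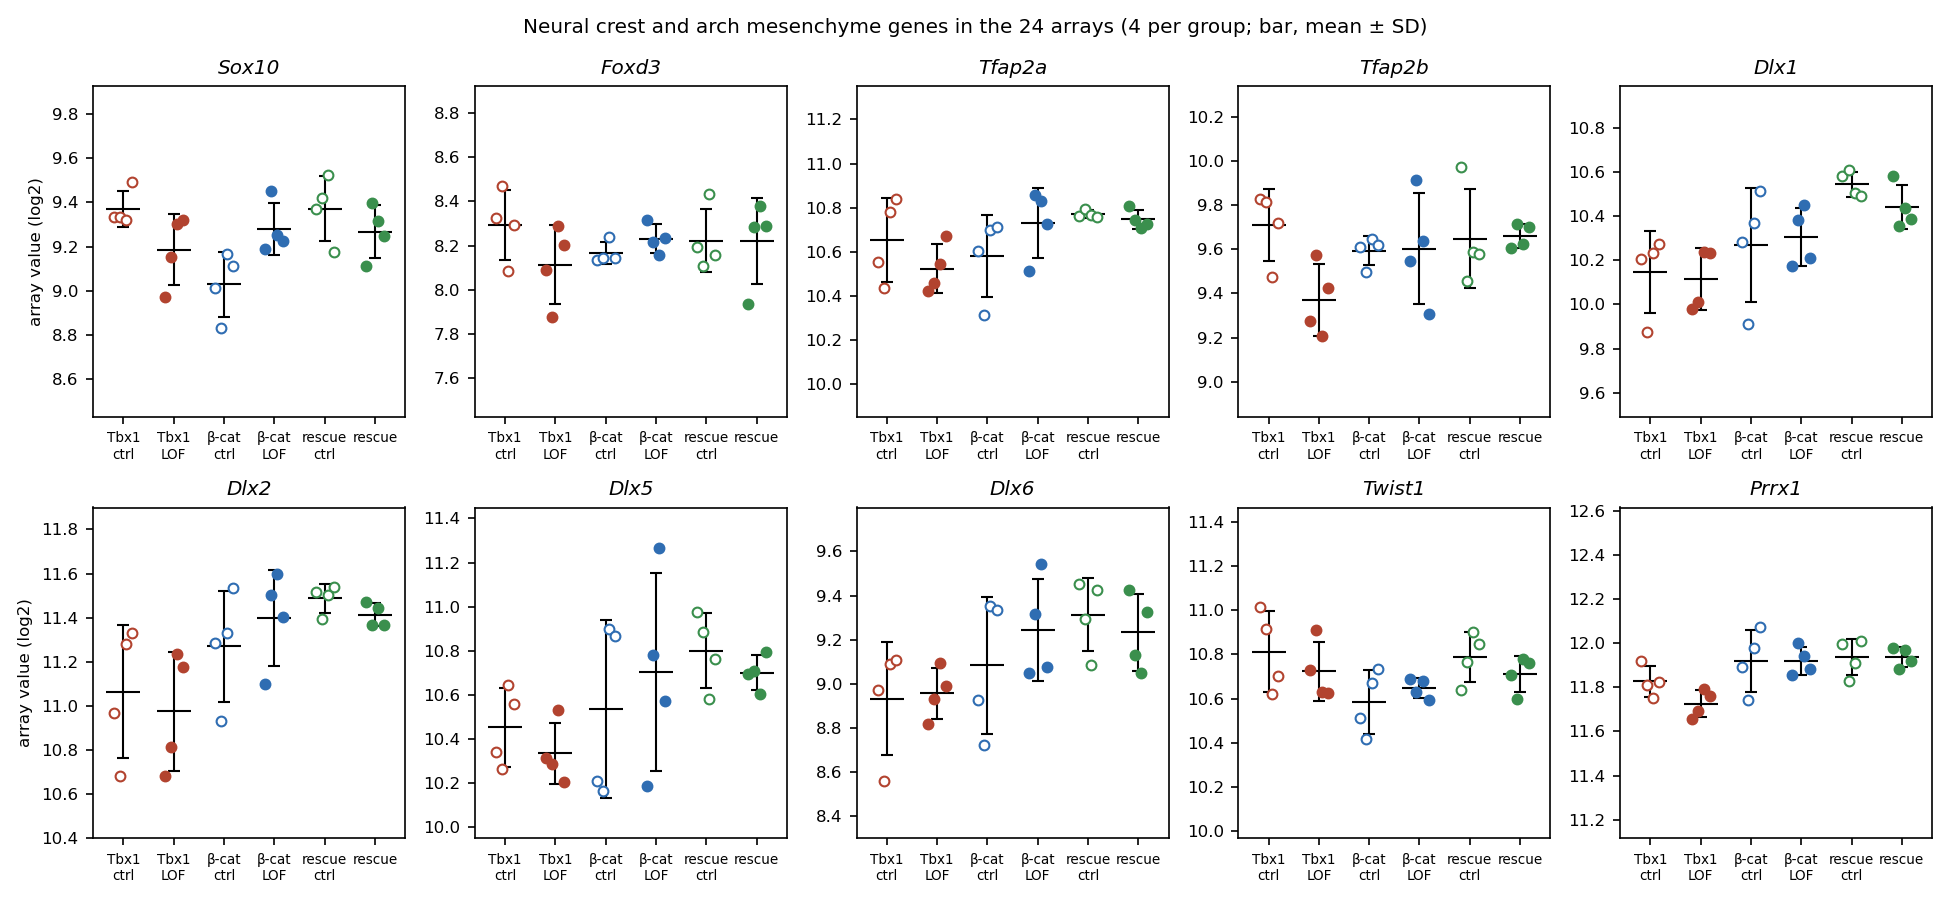
Array values (log2, y axis) of the 10 genes in the 6 groups (x axis), with open points for controls, filled points for mutants and a bar with whiskers for the mean ± SD of 4 arrays. All panels span the same number of log2 units. *Sox10* is lower in every *Tbx1 LOF* array than in its controls and higher in every *β-cat LOF* array than in its controls, and *Dlx2* varies widely among arrays except in the rescue experiment.

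Loss of *Tbx1* was compared with its controls to ask what the AHF tissue loses or gains without this T-box factor. Of the 10 crest and arch genes, 9 had a negative difference and 1 (*Dlx6*, 0.03) a positive one, with a median of -0.11 against -0.01 over all genes. Negative differences made up 58.7% of all genes. At an unadjusted p under 0.05, *Tfap2b* was lower and no member was higher, where 1.95% of all genes were lower and 2.17% higher. At an adjusted p under 0.05 stood 0.0301% of all genes and no member.

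*Tfap2b*, an AP-2 factor of crest and of the smooth muscle of the arch arteries, was at 9.28, 9.57, 9.21 and 9.43 in the *Tbx1 LOF* arrays. It was at 9.83, 9.81, 9.47 and 9.72 in the controls. Of the 4 mutant arrays 3 lay below every control array, and 1 mutant array lay within the control range. The log2 difference was -0.34 (SE 0.11, 95% interval -0.57 to -0.11; limma, unadjusted p = 0.00613, adjusted p = 0.707), a fold of 0.791. A two-sided exact permutation test of the 8 arrays gave p = 0.0571, where 0.0286 is the smallest it can give. Left-out arrays moved the difference between -0.42 and -0.28, and the unadjusted p stayed under 0.05 each time. In *β-cat LOF* the same gene was at 9.55, 9.91, 9.64 and 9.31, against 9.61, 9.497, 9.65 and 9.62 in controls, a difference of 0.01 (95% interval -0.22 to 0.24). In rescue it was at 9.61, 9.71, 9.62 and 9.70, against 9.97, 9.46, 9.59 and 9.58, again a difference of 0.01 (95% interval -0.22 to 0.25). In both experiments the groups overlapped, and the spread fell on different groups, being wide in the *β-cat LOF* mutants and in the rescue controls.

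*Sox10*, which encodes an SRY-related factor required for glia, pigment cells and autonomic neurons of crest origin, was at 8.97, 9.15, 9.30 and 9.32 in *Tbx1 LOF* and at 9.33, 9.33, 9.32 and 9.49 in its controls. The mutant and control ranges did not overlap, but the highest mutant (9.318) and the lowest control (9.320) met at the second decimal. Among all genes, 0.973% did not overlap with the mutant lower and 1.32% with the mutant higher. The log2 difference was -0.18 (SE 0.090, 95% interval -0.37 to 0.00; limma, unadjusted p = 0.0522, adjusted p = 1). Without mutant replicate 1 it was -0.11 (unadjusted p = 0.229).

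*Foxd3*, a forkhead factor of the earliest crest, was at 8.09, 7.88, 8.29 and 8.20 in *Tbx1 LOF*. Its controls were at 8.33, 8.47, 8.08 and 8.29. The groups overlapped broadly, and the difference was -0.18 (95% interval -0.38 to 0.02; limma, adjusted p = 1). *Tfap2a* was at 10.42, 10.46, 10.55 and 10.67 against 10.55, 10.43, 10.78 and 10.84, a difference of -0.13 (95% interval -0.32 to 0.06). The 4 *Dlx* genes, all homeobox factors, differed by -0.12 (*Dlx5*), -0.09 (*Dlx2*), -0.03 (*Dlx1*) and 0.03 (*Dlx6*). Every one of them had mutant arrays inside the control range, and their 95% intervals reached at least 0.19 in either direction.

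*Prrx1*, a paired-type homeobox factor of limb and craniofacial mesenchyme, was at 11.66, 11.69, 11.79 and 11.76 in *Tbx1 LOF* and at 11.92, 11.81, 11.75 and 11.83 in controls. In 2 mutant arrays it lay below all controls, and the difference was -0.10 (95% interval -0.23 to 0.03; limma, adjusted p = 1). *Twist1*, a basic helix-loop-helix factor of mesenchyme, differed by -0.09 (95% interval -0.27 to 0.09). The count of 1 member at an unadjusted p under 0.05 became 3 without mutant replicate 3, and 2 when mutant replicate 4 or either of control replicates 2 and 3 was left out. It became 3 with array weights and 2 with a term for arrays numbered 1 and 2 against 3 and 4.

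Markers of other tissues moved in the same comparison, in which 2.17% of all genes were higher and 1.95% lower at an unadjusted p under 0.05. Of the 9 heart tube genes, 7 were higher in *Tbx1 LOF* at an unadjusted p under 0.05, and their mean level relative to all arrays was 0.261 to 0.522 in mutants against -0.592 to -0.0585 in controls. The 13 neural tube and ganglion neuron genes ranged from -0.537 to 0.556 in mutants, a wider range than the 0.0349 to 0.387 of controls, with 1 of 13 (*Olig2*) lower at that threshold. Of these 13 genes, 12 had a negative difference and 1 a positive one, with a median of -0.19, against -0.11 for the 10 crest and arch genes. Of the 12 epithelial and surface ectoderm genes, 2 (*Krt8* and *Krt18*) were higher at that threshold, while 6 of 12 had a negative difference and the median was -0.011. *Krt8* (0.27) was higher in all 4 mutant arrays than in any control, as for 1.32% of all genes. *Trp63* (-0.11; limma, unadjusted p = 0.171) was lower in all 4 mutant arrays than in any control, as for 0.973%. The part of these tissues in the differences of the 10 genes was not tested.

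Loss of β-catenin was compared with its controls to ask how the same tissue changes without the transducer of canonical Wnt signalling. Here 9 of the 10 genes had a positive difference and 1 (*Prrx1*, -0.0018) a negative one, with a median of 0.10 against 0.01 over all genes. Positive differences made up 57.4% of all genes. *Sox10* was the 1 member higher at an unadjusted p under 0.05, and none was lower, where 2.83% of all genes were higher and 2.88% lower. The share of all genes at an adjusted p under 0.05 was 0%.

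*Sox10* was at 9.19, 9.45, 9.25 and 9.23 in *β-cat LOF* and at 9.01, 8.83, 9.16 and 9.11 in its controls. All 4 mutant arrays lay above all 4 controls, as was the case for 2.06% of all genes, while 0.787% did not overlap with the mutant lower. The log2 difference was 0.25 (SE 0.090, 95% interval 0.064 to 0.44; limma, unadjusted p = 0.0105, adjusted p = 0.782), a fold of 1.19, and the exact permutation test gave its smallest possible p, 0.0286. Without control replicate 2 the difference was 0.18 (unadjusted p = 0.0573), and without mutant replicate 2 it was 0.19 (unadjusted p = 0.052). Control replicate 2 held the lowest *Sox10* value of all 24 arrays and was the array that stood apart in heart tube genes. The *β-cat LOF* mutant values, 9.19 to 9.45, lay within the range of the control arrays of the other 2 experiments, 9.17 to 9.53, and the *β-cat* controls had the lowest mean of the 6 groups.

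The other members overlapped between *β-cat LOF* and controls. *Tfap2a* was at 10.51, 10.86, 10.83 and 10.72 against 10.60, 10.31, 10.70 and 10.71. The values of 3 mutant arrays exceeded all controls and the other did not, for a difference of 0.15 (95% interval -0.04 to 0.34; limma, adjusted p = 0.861). *Dlx5*, expressed in the distal arch mesenchyme, was at 10.19, 10.78, 11.27 and 10.57 in mutants and at 10.21, 10.16, 10.90 and 10.87 in controls. Each of its groups spanned more than the difference between them, 0.17 (95% interval -0.20 to 0.53). *Dlx6*, its neighbour in the genome, differed by 0.16 (95% interval -0.13 to 0.46), *Dlx2* by 0.13 (95% interval -0.16 to 0.42) and *Dlx1* by 0.04 (95% interval -0.18 to 0.25).

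*Foxd3* was at 8.32, 8.22, 8.16 and 8.23 against 8.14, 8.14, 8.24 and 8.14, which was the narrowest control group of this gene and gave a difference of 0.07 (95% interval -0.13 to 0.27). *Twist1* differed by 0.07 (95% interval -0.11 to 0.24). The count of 1 member at an unadjusted p under 0.05 became 0 without control replicate 2 or without mutant replicate 2. It became 2 without mutant replicate 1 or with the term for arrays numbered 1 and 2.

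In this experiment 3 of 13 neural tube and ganglion neuron genes (*Sox2*, *Pax6* and *Olig2*) were higher in mutants at an unadjusted p under 0.05. At that threshold 2.83% of all genes were higher and 2.88% lower. The mean of the 13 relative to all arrays was 0.0271 to 0.0997 in mutants and -0.272 to -0.0727 in controls, with no overlap, as for *Sox10*. Of the epithelial genes 2 of 12 (*Cdh1* and *Krt14*) were higher, with means of 0.0381 to 0.123 in mutants and -0.109 to 0.0483 in controls. The difference was positive in 11 of the 12 epithelial genes, with a median of 0.11, against 0.10 for the 10 crest and arch genes. It was positive in 11 of the 13 neural genes and negative in 2. All 9 heart tube genes had a negative difference, 8 of them at an unadjusted p under 0.05, with means of -0.411 to 0.0925 in mutants and 0.219 to 2.06 in controls, the highest being control replicate 2. In rescue 12 of the 13 neural genes had a positive difference, none at an unadjusted p under 0.05, while *Sox10* differed by -0.10 in rescue. The median of the 13 was 0.25 in rescue and 0.16 in *β-cat LOF*. The part of these tissues in the *Sox10* difference was not tested.

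**Figure D2:**
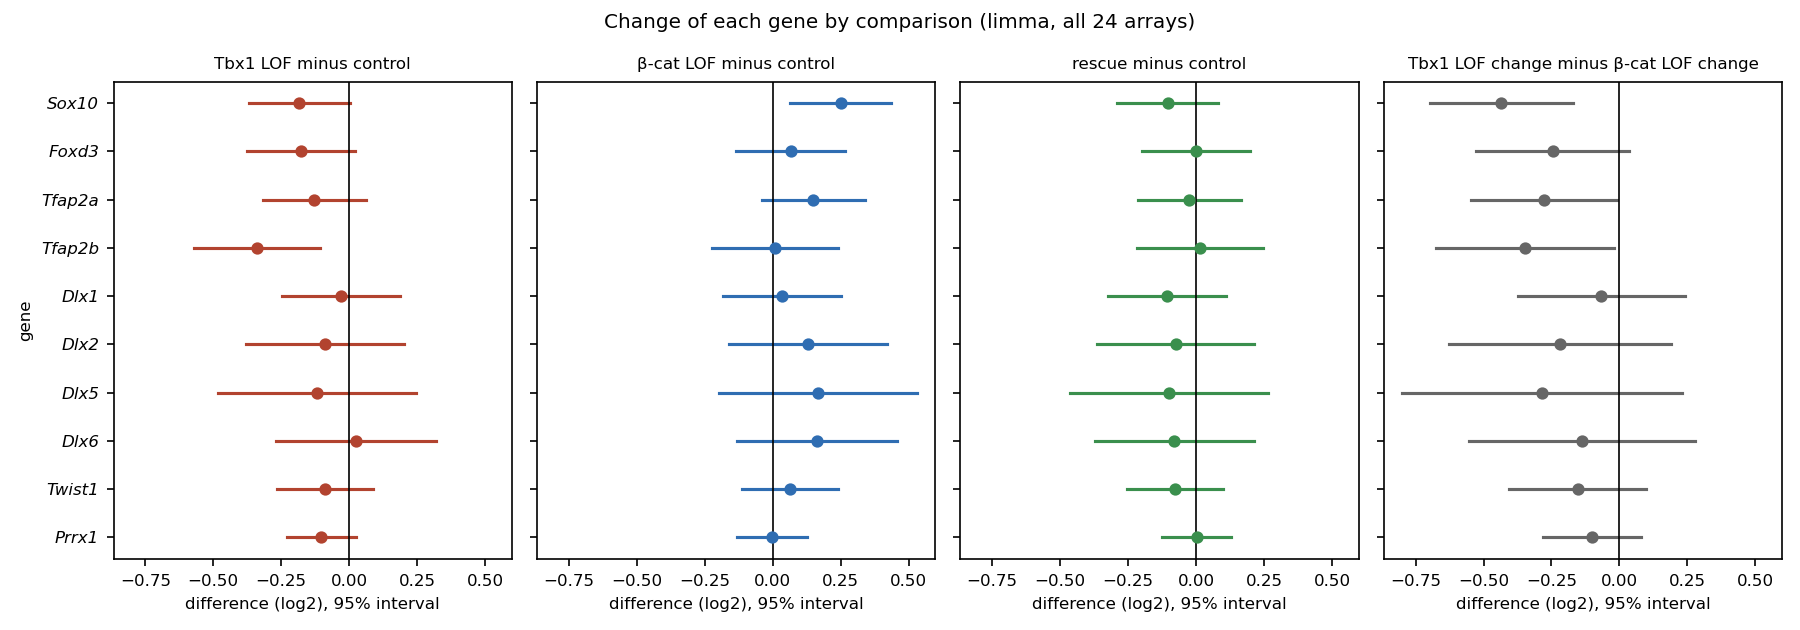
Difference of each gene (y axis) in log2 units (x axis), with lines for 95% intervals, in the 3 mutant against control comparisons and for the *Tbx1 LOF* change minus the *β-cat LOF* change. The interval excludes 0 for *Tfap2b* in *Tbx1 LOF*, for *Sox10* in *β-cat LOF*, and for *Sox10*, *Tfap2a* and *Tfap2b* in the last panel.

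In rescue embryos the question was whether removing 1 β-catenin allele offsets the loss of *Tbx1*. None of the 10 crest and arch genes differed from its control by more than 0.11 there. Crest genes of the lists counted below differed more, with *Fabp7* at 0.54, *Zic1* at 0.48, *Itga4* at 0.42 and *Ret* at -0.16. None of these was at an unadjusted p under 0.05. The 10 differences ran from -0.11 (*Dlx1*) to 0.01 (*Tfap2b*), with 8 negative and a median of -0.08. Over all genes the median was -0.02 and 60.9% were negative. No member was at an unadjusted p under 0.05, where 0.371% of all genes were higher and 0.898% lower. All 10 overlapped between mutants and controls, where 0.737% of all genes had every mutant array higher and 2.24% every mutant array lower. The share at an adjusted p under 0.05 was 0%.

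*Sox10* was at 9.11, 9.40, 9.32 and 9.25 in rescue and at 9.37, 9.42, 9.53 and 9.17 in controls. Mutant replicate 1 lay below all controls, and the difference was -0.10 (95% interval -0.29 to 0.08; limma, adjusted p = 1). *Foxd3* and *Prrx1* differed by 0.00, with 95% intervals of -0.20 to 0.20 and -0.13 to 0.13. *Tfap2a* was the steadiest, at 10.81, 10.75, 10.71 and 10.73 against 10.76, 10.80, 10.77 and 10.76, a difference of -0.02 (95% interval -0.21 to 0.16). The *Dlx* genes lay between -0.11 and -0.08, and *Twist1* at -0.08.

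The *Tbx1 LOF* and *β-cat LOF* changes were compared directly, as the study set them against each other. The experiments share no array. All 10 genes had a more negative change in *Tbx1 LOF*, with a median difference of -0.23, against -0.03 and 62.2% negative over all genes. This was not particular to the 10, since all 13 neural tube and ganglion neuron genes were also more negative (median -0.35). Of the 13 crest induction and migration genes counted below, 10 were more negative and 3 more positive (median -0.18). Of the 12 epithelial genes 9 were more negative and 3 more positive (median -0.11), and all 9 heart tube genes were more positive (median 1.31). At an unadjusted p under 0.05 stood 3 members, all more negative in *Tbx1 LOF*, where 3.04% of all genes were more negative and 3.41% more positive. At an adjusted p under 0.05 stood 0.0502% of all genes and no member.

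*Sox10* had the largest of these, -0.43 (SE 0.13, 95% interval -0.70 to -0.17; limma, unadjusted p = 0.00237, adjusted p = 0.243). It ran from -0.48 to -0.36 over left-out arrays and other settings, and the unadjusted p was at most 0.00758. *Tfap2b* differed by -0.35 (SE 0.16; limma, adjusted p = 0.714), nearly all of it from the *Tbx1 LOF* side. *Tfap2a* differed by -0.28 (SE 0.13; limma, adjusted p = 0.732), made of -0.13 in one experiment and 0.15 in the other. *Dlx5* differed by -0.29, with a 95% interval from -0.80 to 0.23. The count of 3 became 1 without *Tbx1* mutant replicate 1, *Tbx1* control replicate 4, *β-cat* mutant replicate 2, *β-cat* mutant replicate 3 or *β-cat* control replicate 2.

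Against the rescue change, the *Tbx1 LOF* change was more negative in 8 of 10 genes, with a median of -0.05 (-0.16 with array weights), while over all genes 48% were negative. *Tfap2b* was the 1 member at an unadjusted p under 0.05, with -0.35 (SE 0.16, 95% interval -0.68 to -0.02; limma, unadjusted p = 0.0365, adjusted p = 1). At that threshold 0.767% of all genes were more negative and 0.943% more positive, and at an adjusted p under 0.05 the share was 0%. For *Sox10* the changes differed by -0.08 (95% interval -0.34 to 0.18) and for *Foxd3* by -0.18 (95% interval -0.46 to 0.10). The count of 1 became 0 without *Tbx1* mutant replicate 1 or 3, *Tbx1* control replicate 1, 2 or 4, rescue mutant replicate 2 or 4, or rescue control replicate 2, 3 or 4, and 2 without rescue mutant replicate 1.

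Levels were then set in order over the 6 groups. The *Tbx1 LOF* group had the lowest mean for 7 genes (*Foxd3*, *Tfap2a*, *Tfap2b*, *Dlx1*, *Dlx2*, *Dlx5* and *Prrx1*), and the rescue controls had the highest for 6 (*Sox10*, *Tfap2a* and the 4 *Dlx* genes). For *Dlx1*, *Dlx2*, *Dlx5* and *Prrx1* the *Tbx1* controls had the next lowest mean, so this order mixes genotype with experiment. Some of these genes also varied together within groups, as described below, so they are not separate observations. In every gene the arrays of neighbouring groups in this order overlapped, for each of the 5 neighbouring pairs. The lowest and highest groups did not overlap in 6 genes, *Sox10*, *Tfap2a*, *Dlx1*, *Dlx2*, *Dlx5* and *Prrx1*. Over all genes this held for 23.9%, and 13% had their lowest mean in *Tbx1 LOF* and 21% their highest in the rescue controls. The span of the 6 means ran from 0.18 in *Foxd3* to 0.51 in *Dlx2*.

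For *Dlx1* and *Dlx2*, 2 adjacent genes transcribed toward each other and active in the arches, the experiments differed more than mutant and control. *Dlx2* was at 10.68, 10.81, 11.23 and 11.17 in *Tbx1 LOF* and at 10.97, 10.68, 11.28 and 11.33 in its controls. It was at 11.47, 11.37, 11.44 and 11.37 in rescue and at 11.52, 11.39, 11.50 and 11.54 in the rescue controls. All 8 rescue experiment arrays lay above all 8 *Tbx1* experiment arrays, mutants and controls alike. *Dlx1* showed the same, with 9.87 to 10.27 in the *Tbx1* experiment and 10.35 to 10.61 in the rescue experiment. Of the other 8 genes none was separated in this way, and of all genes 0.231% were higher and 0.155% lower in the rescue experiment. The *β-cat* experiment overlapped both ranges, at 9.91 to 10.51 for *Dlx1* and 10.93 to 11.60 for *Dlx2*. Experiment, strain background, litter, array batch and the floxed alleles of the controls cannot be told apart here. *Dlx1as*, an antisense gene overlapping *Dlx1* with a probe set of its own, differed by -0.03, 0.08 and 0.07 in the 3 mutant against control comparisons.

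Within groups, some of these genes varied together from array to array. After each group's mean was taken away, *Tfap2a*, *Dlx1*, *Dlx2*, *Dlx5* and *Dlx6* formed 10 pairs with a median Pearson correlation of 0.802 (0.639 to 0.906) over the 24 arrays, and a median Spearman correlation of 0.79. The other 35 pairs among the 10 genes had a median of 0.134 (-0.383 to 0.678). These 5 genes were grouped after their correlations were seen, so the contrast is a description. *Tfap2a* and *Dlx2*, on different chromosomes, were the closest pair at 0.906, ahead of the neighbours *Dlx1* and *Dlx2* (0.872) and *Dlx5* and *Dlx6* (0.832).

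The covariation was not the same in each experiment. The median over the 10 pairs was 0.838 in the 8 arrays of the *Tbx1* experiment and 0.881 in those of the *β-cat* experiment, but 0.232 (-0.363 to 0.751) in those of the rescue experiment, where *Dlx2* and *Tfap2a* hardly varied. The other 35 pairs had medians of -0.029, 0.607 and -0.155 in turn. In the *β-cat* experiment most of the 10 genes therefore varied together, with single other pairs up to 0.952. Without the 2 arrays farthest from the median of the first gene it was 0.732, and with array numbers 1 and 2 centred apart from 3 and 4 it was 0.705, against 0.311 for the other pairs. *Prrx1* joined *Dlx1* at 0.678. *Sox10* was closest to *Tfap2a* among the members (0.576). *Foxd3* ran against *Dlx6* (-0.383). *Twist1* ran against the 4 *Dlx* genes in the *Tbx1* experiment (-0.750 to -0.536) and with them in the *β-cat* experiment (0.607 to 0.811), so that its values over all 24 arrays, -0.221 to 0.0207, combine opposite signs.

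**Figure D3:**
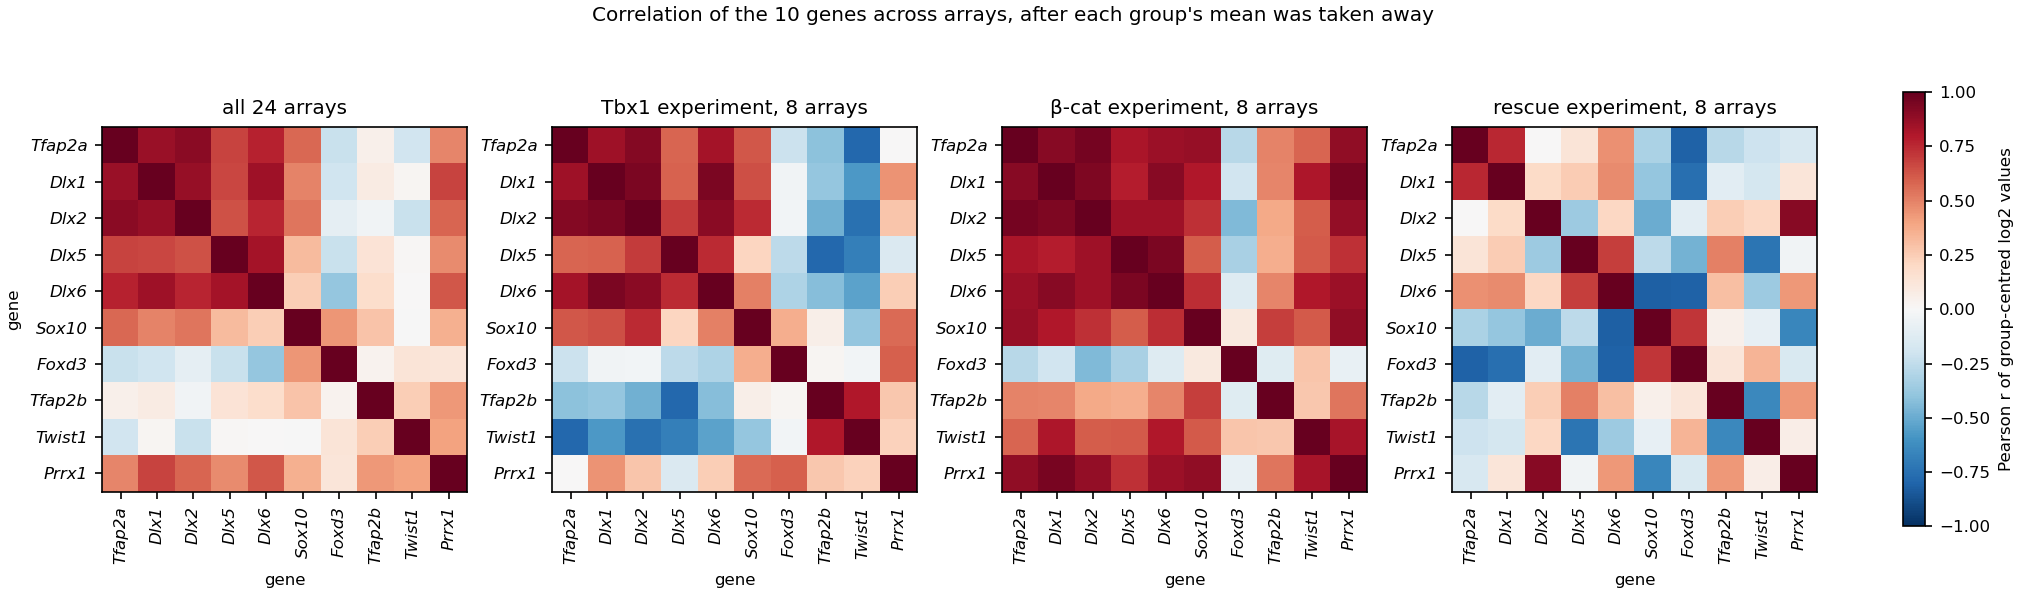
Pearson correlation (colour, from -1 to 1) between the 10 genes (both axes) across arrays, after each group's mean was subtracted, for all 24 arrays and for the 8 arrays of each experiment. *Tfap2a* and the *Dlx* genes form a block with a median r of 0.838 in the *Tbx1* experiment and 0.881 in the *β-cat* experiment, and of 0.232 in the rescue experiment, where the other pairs have medians of -0.029, 0.607 and -0.155.

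By a rule of the highest correlation of group-centred values over the 24 arrays, the 3 genes most like each member were named. For *Sox10* they were *Tbx1* (0.812), the BMP antagonist *Grem1* (0.798) and the mesoderm homeobox gene *Meox1* (0.771). For *Tfap2a* they were *Dlx2* (0.906), the epithelial protease gene *Prss8* (0.894) and the forkhead gene *Foxi3* of pharyngeal ectoderm (0.888). For *Dlx1* they were *Zfp821* (0.913), the pharyngeal pouch gene *Pax9* (0.894) and the epithelial protease inhibitor gene *Spint2* (0.883), and the gene most opposed was albumin, *Alb* (-0.884). *Dlx2* was most like *Mogat2* (0.928), *Vgll2* (0.923) and the FGF feedback gene *Spry1* (0.915). *Dlx5* had *Rab15* (0.926), *2610318N02Rik* (0.911) and *Dlx3* (0.891), a further *Dlx* gene of the arches, and *Dlx6* had *Rab15* (0.916), *Ambra1* (0.885) and *H1f3* (0.885). *Rab15* was thus the nearest gene of both members of this genomic pair.

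For the remaining members the nearest genes were in none of the lists used here. *Twist1* was nearest to *Prpf19* (0.897), *Cct3* (0.888) and *Psmd6* (0.873), genes of splicing, protein folding and the proteasome, and these fell to between 0.551 and 0.716 when array numbers were also centred. *Prrx1* was nearest to *Traf4* (0.805), *Srsf9* (0.782) and *Gm266* (0.78). *Foxd3* was nearest to *Fbxw13* (0.801), *Kera* (0.79) and *Pnma2* (0.789), and *Tfap2b* to *Tedc2* (0.821), *Fam149a* (0.813) and *Tbc1d8b* (0.796). Each was picked as the highest of the correlations with all other genes, and the arrays share their normalization.

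The mean of *Tfap2a* and the 4 *Dlx* genes was also set against marker lists, as group-centred means. It correlated at -0.531 (Spearman -0.324) with heart tube genes, at 0.553 (0.585) with AHF and pharyngeal mesoderm genes, at 0.338 (0.505) with epithelial and surface ectoderm genes and at 0.037 with neural genes. With the other crest and arch genes it correlated at -0.332 (crest induction and migration), 0.402 (4 genes of crest derivatives), 0.15 (arch mesenchyme) and 0.219 (endothelin 1 pathway). When array numbers were also centred, the value for AHF and pharyngeal mesoderm genes was 0.159, and those for crest induction, arch mesenchyme and the endothelin 1 pathway were 0.112, 0.415 and 0.624. *Prrx1* correlated at -0.768 (Spearman -0.614) with heart tube genes, the strongest of these relations. *Sox10* correlated at -0.438 with heart tube genes and at 0.03 with neural genes. What part tissue content plays in the covariation was not tested.

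Further genes of crest and arches were counted from 4 lists. Of 13 crest induction and migration genes, 4 were lower in *Tbx1 LOF* at an unadjusted p under 0.05 and none was higher, against 1.95% and 2.17% of all genes. The median was -0.12, against -0.01, with 10 negative and 3 positive differences (*Itga4* 0.28, *Ednrb* 0.15 and *Snai2* 0.01). The 4 were *Sox9* (-0.20), *Ets1* (-0.17), *Pax3* (-0.48) and *Zic1* (-0.63). None reached an adjusted p of 0.05, and in each case 1 mutant array did not lie below all controls. *Pax3* and *Zic1*, which are also genes of the dorsal neural tube, varied most. *Zic1* was at 7.68, 9.42, 7.98 and 7.91 in mutants against 9.19, 9.33, 8.81 and 8.18 in controls, and mutant replicate 2, the high one, was also the array with the highest neural marker level. In *β-cat LOF* only *Erbb3*, the neuregulin receptor of migrating crest, was higher (0.15) at an unadjusted p under 0.05, against 2.83% of all genes. In *Tbx1 LOF* all 4 mutant arrays of *Erbb3* lay below all controls, as for 0.973% of all genes (-0.14; limma, unadjusted p = 0.0536). Its 2 changes differed by -0.29 (limma, unadjusted p = 0.00731, adjusted p = 0.386). In rescue none of the 13 had an unadjusted p under 0.05, where 0.371% of all genes were higher and 0.898% lower.

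Of 8 genes of crest derivatives 4 were measured. At an unadjusted p under 0.05, 1 was lower in *Tbx1 LOF* (median of the 4 -0.19), against 1.95% of all genes. In *β-cat LOF* 2 were higher (median 0.22), against 2.83%, and in rescue none was at that threshold. *Ret*, the receptor of enteric crest and of ureteric bud, was at 9.67, 9.40, 9.52 and 9.68 in *Tbx1 LOF* against 9.86, 9.74, 9.98 and 9.90, with no overlap, as for 0.973% of all genes, and a difference of -0.30 (limma, adjusted p = 0.893). It was higher in *β-cat LOF* by 0.25 (limma, adjusted p = 0.854), with overlap. *Ret* thus followed the directions of *Sox10* in both. *Phox2a* did so too (-0.09 and 0.19), whereas *Mitf* had the opposite signs (0.09 and -0.13). Neither was at an unadjusted p under 0.05. *Fabp7*, a glial gene, was higher in *β-cat LOF* by 0.65 (limma, adjusted p = 0.854), with 3 of 4 mutant arrays above all controls.

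Of 21 arch mesenchyme genes 19 were measured. In *Tbx1 LOF* 5 were lower and 1 was higher at an unadjusted p under 0.05, against 1.95% and 2.17% of all genes, with a median of -0.05 against -0.01. *Six2* had the smallest p of them, at 10.24, 10.74, 10.51 and 10.49 against 10.94, 10.85, 10.80 and 10.92, with a difference of -0.38 (limma, adjusted p = 0.398) and no overlap, as for 0.973% of all genes. The other lower genes were *Foxd1* (-0.54), *Foxc1* (-0.29), *Hoxa2* (-0.20) and *Osr2* (-0.14), and the higher was *Alx1* (0.22). In *β-cat LOF* *Alx1* (-0.28) and *Twist2* (-0.24) were lower and *Osr2* was higher (0.15), so *Alx1* and *Osr2* had opposite signs in the 2 mutants. In rescue none of the 19 was at an unadjusted p under 0.05.

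Endothelin 1 signals from arch epithelium and core mesoderm to crest mesenchyme and turns on *Dlx5*, *Dlx6* and *Hand2* there. Of 11 genes of this pathway 10 were measured. *Hand2*, a target that is also a heart field gene, was at 10.56, 10.33, 10.43 and 10.31 in *Tbx1 LOF* against 10.22, 10.04, 10.22 and 10.15. No arrays overlapped, as for 1.32% of all genes with the mutant higher, and the difference was 0.25 (limma, adjusted p = 0.235). The converting enzyme gene *Ece1* was also higher, by 0.15 (limma, adjusted p = 0.982), so that 2 of 10 were higher at an unadjusted p under 0.05 against 2.17% of all genes, whereas *Dlx5* and *Dlx6* differed by -0.12 and 0.03. In *β-cat LOF* and in rescue none of the 10 was at an unadjusted p under 0.05.

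**Figure D4:**
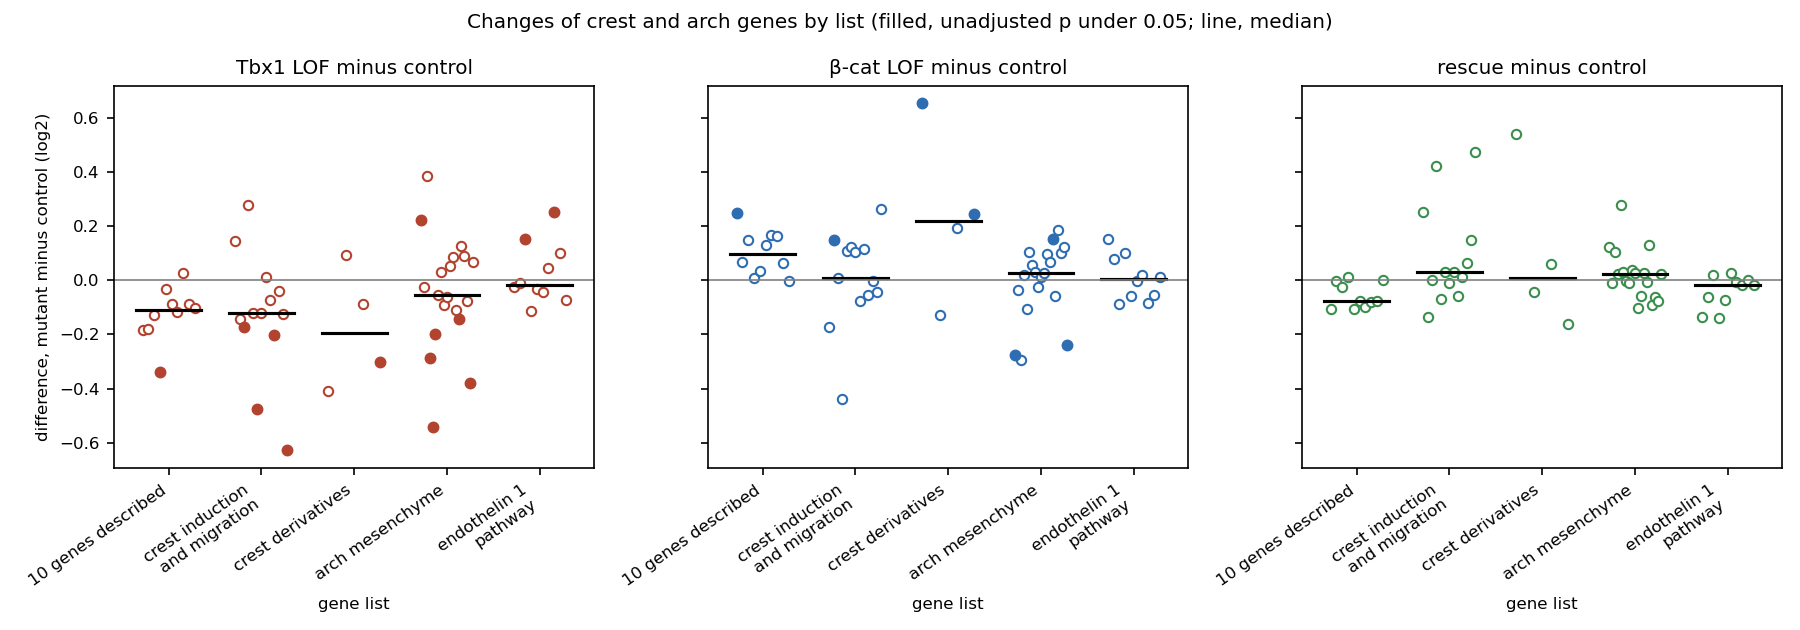
Difference, mutant minus control (log2, y axis), of every measured gene of the 5 lists (x axis) in *Tbx1 LOF*, *β-cat LOF* and rescue; filled points have an unadjusted p under 0.05 and lines are medians. The median of the 10 genes is -0.11, 0.10 and -0.08 in turn, and no point is filled in rescue.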

How the data were processed

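RNA of microdissected AHF tissue was hybridised to Affymetrix mouse Gene ST arrays. The authors turned the scanned intensities into the deposited log2 values with oligo, whose RMA corrects background, applies quantile normalization and summarizes each probe set. Neither a version nor a build is given in the sources used here. The paper also describes ComBat and blocking for batch. It is not stated whether ComBat was applied to the deposited values or which batch an array belongs to, so batch was not modelled.

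Probe sets annotated to a single symbol, 21789 in number, were averaged to 19938 genes, which left out 1621 probe sets with several symbols and 12146 without one. No filter on low values was applied. The deposited values ran from 3.62 to 14.56, and array medians from 8.00 to 8.14. The number of arrays limits the precision, and nothing in the labels says that the pools came from separate litters, so p-values measure the spread between these arrays. All 24 arrays entered 1 limma fit (limma 3.58.1, R 4.3.3) with 6 group means, and p-values were adjusted by Benjamini-Hochberg over all genes. The script was tested on simulated data. Single genes were also compared by two-sided exact permutation tests. Intervals are 95% intervals of the fit. Correlations were computed on values centred on group means.

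The 10 genes and the lists were chosen with earlier results of these data known. Genes named are the 10, the 3 genes most like each, list genes at an unadjusted p under 0.05, a few further list genes for their level or direction, and *Tbx1* and *Ctnnb1*. *Dlx1as* and the most opposed gene of *Dlx1* were named after their values were seen.

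Whether replicate numbers pair mutant and control arrays was checked by the correlation of their deviations from group means over genes. It was 0.157 to 0.494 in the *Tbx1* experiment, in which every pair exceeded 0.1 and in 1 of 4 (replicate 4) the own number gave the best match. It was 0.0889 to 0.479 in the *β-cat* experiment, in which the own number was best for replicates 3 and 4. In the rescue experiment it was -0.0638 to 0.256, with the own number best for replicate 3. The values reported are from the fit without a replicate block. Alternatives were another choice of probe set, median centring, quantile normalization, a filter on low genes, separate fits, trend and robust moderation, array weights, a replicate block, a term for array number and each array left out. For the correlations, 3 alternatives (array numbers centred, each experiment alone, 2 arrays left out) were chosen after seeing the data. Plots were made in matplotlib 3.10.9 under Python 3.11.15.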

Additional observations from a re-analysis of the deposited data

Results flagged for a closer look

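*Sox10* differed from control in opposite directions in the 2 loss-of-function experiments, with every *Tbx1 LOF* array below its controls and every *β-cat LOF* array above its own, as for 0.973% and 2.06% of all genes. In *Tbx1 LOF* the highest mutant (9.318) and the lowest control (9.320) nearly met, and without mutant replicate 1 the change was -0.11 (limma, unadjusted p = 0.229). In *β-cat LOF* the change was 0.18 without control replicate 2 (limma, unadjusted p = 0.0573) and 0.19 without mutant replicate 2 (limma, unadjusted p = 0.052). The changes were -0.18 and 0.25 on the log2 scale, and their difference was -0.43 (limma, adjusted p = 0.243), which did not pass the threshold.

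Single arrays stood far from the other 3 of their group in 3 of the 60 groups checked (10 genes in 6 groups), where chance flags about 1 in 20. *Sox10* was at 9.49 in *Tbx1* control replicate 4, with the nearest other array at 9.33. *Foxd3* was at 8.24 in *β-cat* control replicate 3, with the nearest at 8.14. *Dlx1* was at 9.87 in *Tbx1* control replicate 2, with the nearest at 10.21.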

How the results depend on the processing

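Over 990 values of 50 single-gene differences under alternative settings, 934 kept their direction and their side of an adjusted p of 0.05, and 56 changed sign; no gene passed an adjusted p of 0.05 under any of them. The largest difference that changed sign was that of *Dlx5* in *β-cat LOF* (0.17). The replicate block left the differences unchanged and changed no call (limma, unadjusted p = 0.0117 for *Sox10* in *β-cat LOF* and 0.00792 for *Tfap2b* in *Tbx1 LOF*). The probe set choice could change nothing, since each gene has 1.

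With array weights, sign changed for *Dlx6* in *Tbx1 LOF* (-0.10), *Dlx1* (-0.046) and *Dlx5* (-0.016) in *β-cat LOF*, *Foxd3* (0.084) and *Prrx1* (-0.017) in rescue, and *Twist1* in *Tbx1 LOF* minus rescue (0.065), where the median of the 10 genes moved to -0.16. In *Tbx1 LOF* 3 genes then had an unadjusted p under 0.05. Quantile normalization gave 0.0019 for *Foxd3* in rescue and 0.016 for *Prrx1* in *β-cat LOF*, and median centring 0.00091 for *Foxd3* in rescue. The term for array number gave counts of 2 in both *Tbx1 LOF* and *β-cat LOF*. The cause was not tested.

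With each array left out, the counts ran from 1 to 3 in *Tbx1 LOF*, 0 to 2 in *β-cat LOF*, 1 to 3 for *Tbx1 LOF* minus *β-cat LOF* and 0 to 2 for *Tbx1 LOF* minus rescue. In *Tbx1 LOF*, *Dlx1* ran from -0.12 to 0.014, *Dlx2* from -0.22 to 0.0084 and *Dlx6* from -0.099 to 0.085. In *β-cat LOF*, *Dlx1* ran from -0.084 to 0.12, *Dlx5* from -0.020 to 0.34, *Prrx1* from -0.061 to 0.049 and *Tfap2b* from -0.096 to 0.11. In rescue, *Foxd3* ran from -0.054 to 0.094, *Prrx1* from -0.033 to 0.026 and *Tfap2b* from -0.050 to 0.12. For *Tbx1 LOF* minus *β-cat LOF*, *Dlx1* ran from -0.16 to 0.053. For *Tbx1 LOF* minus rescue, *Dlx1* ran from -0.017 to 0.12, *Dlx2* from -0.14 to 0.083, *Dlx5* from -0.084 to 0.055, *Dlx6* from -0.019 to 0.18 and *Twist1* from -0.076 to 0.056. A group left with 3 arrays was fitted with the spread pooled over all groups.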
